A study of Mus musculus with 4 samples.

Results

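The mitochondrial ribosomal protein genes were taken as every protein-coding row of the count table whose symbol is Mrpl or Mrps followed by a number and at most 1 letter. The rule found 78 of 54532 genes, of which 49 are Mrpl genes, named for the large subunit, and 29 are Mrps genes, named for the small subunit. RNA was sequenced from LL2 cells, a mouse line derived from Lewis lung carcinoma, kept in culture and not in an animal. In 2 libraries the cells had been given 20 mM lactic acid in the medium for 24 h, and in the other 2 an equal volume of PBS for the same time. No genetic change or other agent is given for either group. The labels call the libraries biological replicates without saying whether each came from its own culture, so the p-values measure only the spread between these libraries, which may be technical.

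Mitochondria keep their own ribosome, which makes only the few proteins encoded by the mitochondrial genome, all of them subunits of the respiratory chain and the ATP synthase. Its ribosomal RNAs are transcribed in the organelle, while every protein of both subunits is encoded in the nucleus, made in the cytosol and imported. Many of these proteins match a protein at the same place in bacterial ribosomes, others have no such counterpart and are called specific to mitochondria, and a few have additional or different functions.

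The libraries held 15501006 to 17409990 counts, and members took 0.342% and 0.338% of them with PBS against 0.326% and 0.327% with lactic acid. Across genes, log values correlated at 0.993 between the PBS libraries, 0.992 between the lactic acid libraries and 0.977 between the groups. The mesenchymal markers Vim, Cdh2, Fn1 and Zeb1 summed to 5408 to 5471 CPM (counts scaled to a common library size by the trimmed mean of M-values), and Krt8 and Krt18 were present, but the epithelial adhesion genes Epcam and Cdh1 stood at 0.0151 and 0.0625 CPM. The lung epithelial markers summed to at most 0.445 CPM, with Nkx2-1 at 0. The epithelial sum was 221 and 214 CPM with PBS and 153 in both lactic acid libraries, and the fibroblast sum was 20.2 to 21.7 and 30.7 to 30.9 CPM. Nearly all of the fibroblast sum was Pdgfra, at a mean of 24 CPM over the libraries. Col1a1 stood at 1.4, Dcn at 0.454 and Lum at 0. The endothelial markers summed to 0.408 to 0.846 CPM. The part of these marker differences in the results was not tested.

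Of the 78 members, 77 had enough counts to be tested. With lactic acid 10 members were higher (13.0%), 27 were lower (35.1%) and 40 did not pass the test, at an adjusted p of 0.05 in edgeR's quasi-likelihood test. Over all 13922 genes tested, 24.7% were higher, 24.3% were lower and 49.0% were called in either direction, against 48.1% of members. The median log2 fold change, lactic acid over PBS, was -0.08 over members and 0.0073 over all genes. Changes were small: the median absolute log2 fold change was 0.17 over members and 0.26 over all genes, 17 of the 37 called members moved by less than 1.2-fold, 3 fell by at least 1.5-fold and 0 rose by as much. The libraries of the groups did not overlap for 53 members (68.8%), against 72.3% of all genes tested, and these 53 included all 37 called. Counts of RNA from a whole culture cannot tell fewer cells that express a gene from less of its RNA per cell, and a change shared by all RNA would not show.

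**Figure D1:**
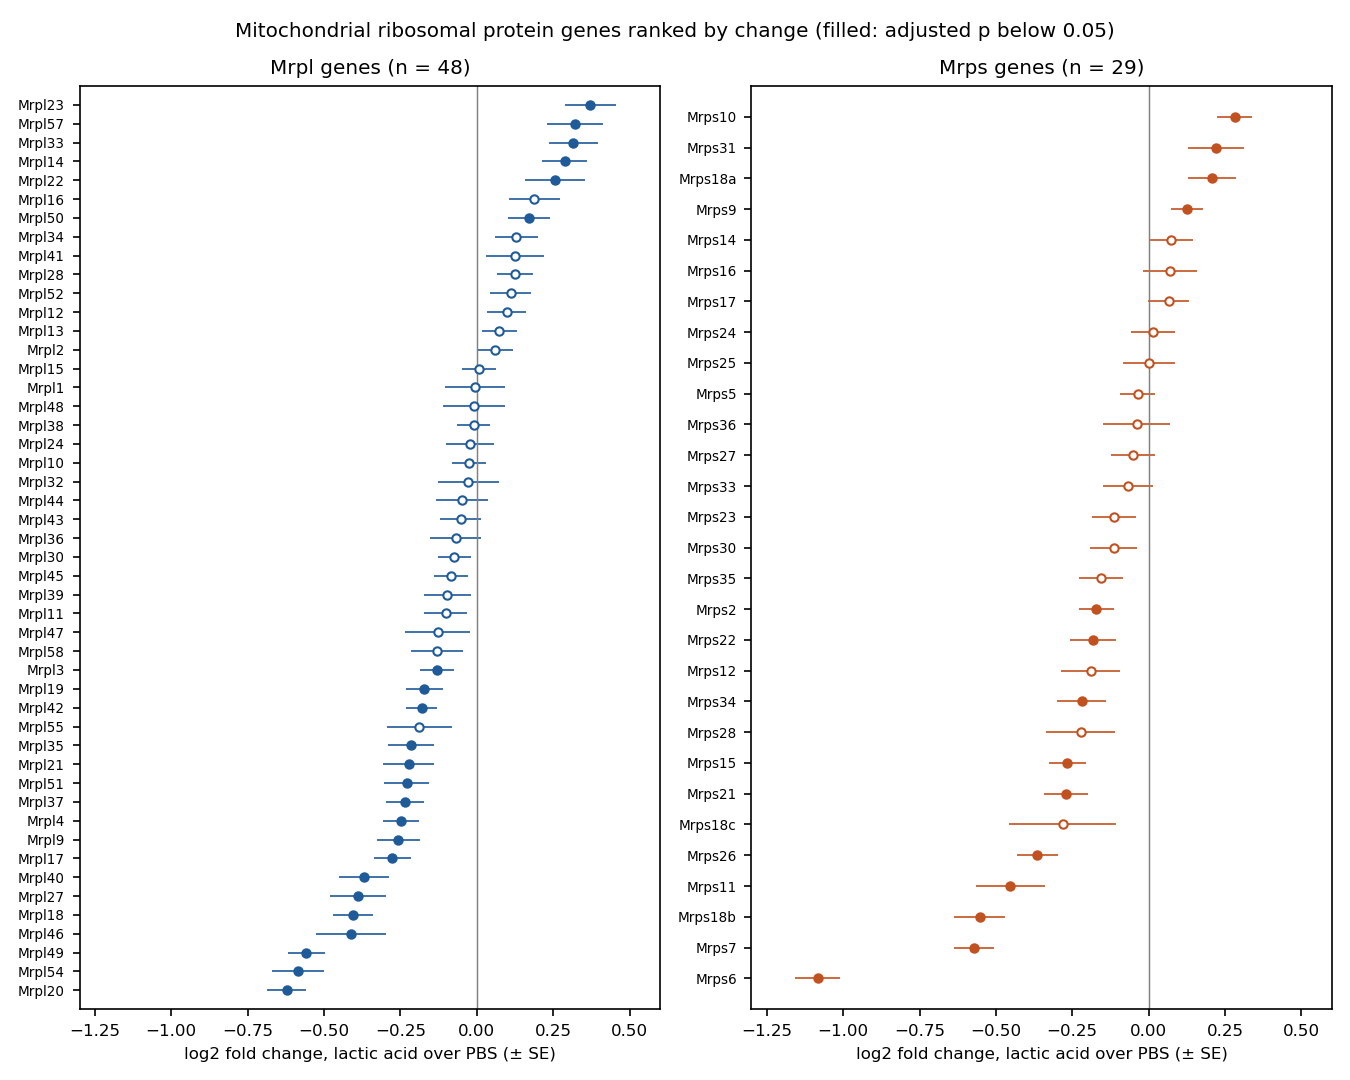
Log2 fold change of each tested member, lactic acid over PBS, ordered by size, with its standard error; colours mark the class and filled points passed the test. More points lie below 0 than above it, and Mrps6, at -1.08, stands apart at the low end.

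The large and the small subunit genes gave like shares of calls. Among the 48 Mrpl genes tested 6 were higher (12.5%), 17 were lower (35.4%) and 25 did not pass, with a median log2 fold change of -0.072. Among the 29 Mrps genes 4 were higher (13.8%), 10 were lower (34.5%) and 15 did not pass, with a median of -0.12. The share called was 47.9% for Mrpl and 48.3% for Mrps, beside 49.0% over all genes. Over all genes 24.7% were higher and 24.3% lower. Summed over genes, Mrpl reached 2269 and 2228 CPM with PBS and 2113 and 2118 CPM with lactic acid, 5.91% less. The Mrps sum was 1217 and 1207 CPM with PBS and 1103 and 1110 CPM with lactic acid, 8.73% less. For both classes each lactic acid library lay below each PBS library.

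The ratio of the Mrps sum to the Mrpl sum was 0.536 and 0.542 with PBS and 0.522 and 0.524 with lactic acid, a difference of -0.044 on the log2 scale. On the CPM sums this difference was -0.0091 without Mrps6, a gene left out after its value was seen. On the FPKM values that the authors deposited (scaled to gene length and library size), where short genes weigh more, it was -0.14, and -0.085 without Mrps6. With 2 libraries a group no exact permutation test of this ratio can pass the threshold, so none is given. Some symbols mislead about the place of the protein. Mrps18a and Mrps30 sit in the large subunit and Mrps36 belongs to the 2-oxoglutarate dehydrogenase complex. Grouped by place, 7 of 50 large subunit genes were higher and 17 lower, with a median of -0.072, and 3 of 26 small subunit genes were higher and 10 lower, with a median of -0.16.

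Mrps6, which encodes a homologue of bacterial S6 on the platform of the small subunit, had the largest change of any member. It stood at 57.2 and 59.6 CPM with PBS and at 25.4 and 29.7 CPM with lactic acid. The lactic acid libraries were at about the same low level, well below both PBS libraries. The gene fell by 1.08 on the log2 scale (SE 0.07, adjusted p 5.26e-19), 2.12-fold, and was the only member past 2-fold. Mrps6 (ENSMUSG00000039680) lies at chr16:92058270-92112227 on the plus strand of GRCm38, and 159 of its exon bases (10.4%) are shared with Slc5a3, the myo-inositol transporter gene on the same strand. Slc5a3 stood at 176 ± 0.373 CPM with PBS and 170 ± 3.32 CPM with lactic acid (SD, n = 2 libraries, as for every ± here), and its log2 difference of -0.05 did not pass (adjusted p 0.296). The promoter window of Mrps6, from 250 bases before its RefSeq start to 50 after it on GRCm38.p6, chr16:92058086-92058385 on the plus strand, is shown because the gene moved most. It held none of the 5 motifs searched (given with the other promoters).
Mrps6: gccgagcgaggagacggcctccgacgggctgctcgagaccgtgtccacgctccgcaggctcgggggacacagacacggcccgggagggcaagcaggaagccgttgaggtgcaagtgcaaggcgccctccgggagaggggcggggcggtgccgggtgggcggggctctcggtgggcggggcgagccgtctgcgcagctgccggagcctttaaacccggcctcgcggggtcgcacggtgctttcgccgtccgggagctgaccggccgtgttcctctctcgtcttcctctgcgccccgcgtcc

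**Figure D2:**
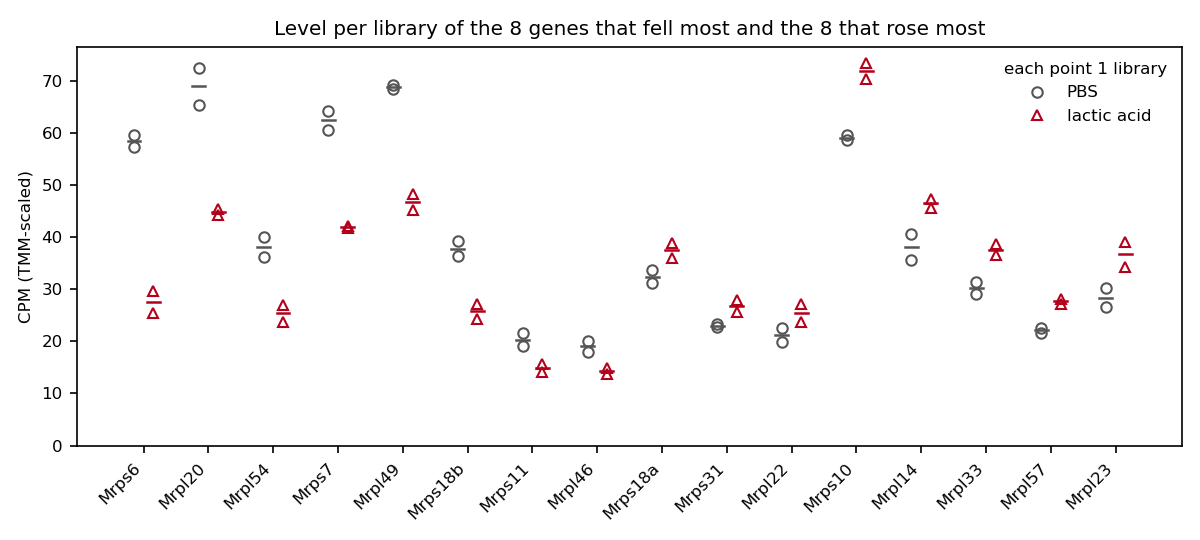
CPM on a linear axis in each of the 4 libraries for the 8 called members that fell most and the 8 that rose most, with circles for PBS, triangles for lactic acid and a bar at each group mean. The libraries of the groups do not overlap for any gene shown, and the lactic acid points of Mrps6 lie at 25.4 and 29.7 CPM, against 57.2 and 59.6 CPM with PBS.

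Core proteins of the small subunit, those with a bacterial homologue at the same place, numbered 16. Of these 2 were higher and 6 lower, with a median of -0.18. Called were 8 of the 16, beside 49.0% over all genes, of which 24.7% were higher and 24.3% lower. Mrps7, a head protein that binds the small ribosomal RNA, stood at 64.2 and 60.5 CPM with PBS and at 42.1 and 41.8 CPM with lactic acid, and fell by 0.57 (SE 0.065, adjusted p 4.43e-11). Mrps7 overlaps Gga3 and Mif4gd, both of which had a log2 difference of 0.01 and did not pass. Mrps11, a platform protein, stood at 19.2 and 21.5 against 15.7 and 14.1 CPM and fell by 0.45 (SE 0.11, adjusted p 0.00056). Mrps15, at 61.7 and 66.9 against 53.2 and 53.8 CPM, fell by 0.27 (adjusted p 0.000234), and Mrps21, at 45.6 and 44.6 against 36.5 and 38.2 CPM, fell by 0.27 (adjusted p 0.00132). For all of these both lactic acid libraries were the low ones. Mrps10, a homologue of bacterial S10 in the head, went the other way, from 58.6 and 59.5 CPM to 73.5 and 70.2 CPM, a rise of 0.28 (SE 0.06, adjusted p 4.19e-05) with no overlap of the groups. Mrps9, also of the head, was called higher by a narrow margin at 71.8 and 77.0 against 80.4 and 82.0 CPM (0.13, adjusted p 0.0463). Its call was lost in 7 of 11 alternative settings, where adjusted p ranged from 0.0243 to 0.363. Mrps12, the homologue of the bacterial decoding-centre protein S12, stood at 27.7 and 23.5 against 21.5 and 23.3 CPM with a log2 difference of -0.19 and did not pass (adjusted p 0.0983), though it did without PBS replicate 2 (0.02).

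Small subunit proteins specific to mitochondria numbered 10, with 1 higher, 4 lower and a median of -0.13. Mrps18b is among them, since it is related to bacterial S18 but takes another place. Called were 5 of the 10, beside 49.0% over all genes, of which 24.7% were higher and 24.3% lower. Mrps26 stood at 53.0 and 52.3 CPM with PBS and 41.6 and 40.2 CPM with lactic acid and fell by 0.36 (SE 0.07, adjusted p 7.5e-06). Mrps34, required for a stable small subunit, stood at 35.6 and 34.3 against 29.0 and 30.9 CPM and was called lower by 0.22 (adjusted p 0.0202). That call was lost with DESeq2 and without PBS replicate 1 or lactic acid replicate 1, with adjusted p from 0.0166 to 0.164 over the alternatives. Moreover 63.4% of the exon bases of Mrps34 lie opposite Mapk8ip3, which was higher by 0.13, and without strand the reads of both cannot be told apart. Mrps31 was called higher at 23.3 and 22.7 against 25.6 and 28.0 CPM (0.22, adjusted p 0.0407), and lost the call in 6 of 11 alternatives, among them those without either PBS library or without lactic acid replicate 2 (0.0354 to 0.325). Mrps25, with 69.8% of its exon bases shared with Nr2c2, was among the members that moved least, with a log2 difference of 0.0021.

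The 3 homologues of bacterial S18 differed in level and in direction. Each mitochondrial ribosome carries Mrps18a in its large subunit, and Mrps18b and Mrps18c in the small one. Mrps18b stood at 36.3 and 39.2 CPM with PBS and 24.2 and 27.3 CPM with lactic acid and fell by 0.55 (SE 0.08, adjusted p 9.48e-08). Mrps18a stood at 31.2 and 33.6 against 38.8 and 36.1 CPM and was called higher by 0.21 (SE 0.08, adjusted p 0.0248). The groups of each gene did not overlap, with lactic acid the low group for the former and the high group for the latter. The call of Mrps18a was lost with DESeq2 and without PBS replicate 1 or lactic acid replicate 1 (adjusted p 0.023 to 0.229 over the alternatives), while that of Mrps18b held in all 11. Mrps18b has a near-identical copy elsewhere, Gm13552, with 91 reads in all libraries together, and shares 30.5% of its exon bases with the antisense gene Gm16279, which held 116. Mrps18c was the least counted tested member at 7.69 and 7.53 against 6.54 and 5.98 CPM, and its log2 difference of -0.28 had the largest standard error, 0.18, and did not pass (adjusted p 0.185).

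The promoter windows of these 3 genes, 300 bases each from RefSeq on GRCm38.p6, are shown because homologues of the same bacterial protein differed in direction here. They lie at chr17:46110754-46111053 on the plus strand for Mrps18a, at chr17:35916391-35916690 on the minus strand for Mrps18b and at chr5:100798509-100798808 on the plus strand for Mrps18c. Capitals mark any of 5 motifs searched on both strands: the ETS type CCGGAAGT, the YY1 type AAGATGGC, the NRF1 type GCATGCGC, the E-box CACGTG and the ATF4 type TGATGNAA. Mrps18a held 1 YY1 type motif, Mrps18b held 2 of the NRF1 type, and Mrps18c held an E-box with an ETS type motif on the opposite strand directly next to it.
Mrps18a: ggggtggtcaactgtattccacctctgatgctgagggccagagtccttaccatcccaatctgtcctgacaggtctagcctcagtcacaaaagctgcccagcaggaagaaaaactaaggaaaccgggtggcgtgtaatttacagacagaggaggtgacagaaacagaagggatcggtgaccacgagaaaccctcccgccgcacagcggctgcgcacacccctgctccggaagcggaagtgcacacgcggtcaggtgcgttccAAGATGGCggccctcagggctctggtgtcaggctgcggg
Mrps18b: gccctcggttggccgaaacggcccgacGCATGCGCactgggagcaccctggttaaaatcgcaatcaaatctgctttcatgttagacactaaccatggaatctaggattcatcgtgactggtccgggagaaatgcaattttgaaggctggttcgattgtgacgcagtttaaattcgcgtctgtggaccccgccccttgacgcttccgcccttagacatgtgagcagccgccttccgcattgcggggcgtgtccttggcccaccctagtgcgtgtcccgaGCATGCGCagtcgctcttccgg
Mrps18c: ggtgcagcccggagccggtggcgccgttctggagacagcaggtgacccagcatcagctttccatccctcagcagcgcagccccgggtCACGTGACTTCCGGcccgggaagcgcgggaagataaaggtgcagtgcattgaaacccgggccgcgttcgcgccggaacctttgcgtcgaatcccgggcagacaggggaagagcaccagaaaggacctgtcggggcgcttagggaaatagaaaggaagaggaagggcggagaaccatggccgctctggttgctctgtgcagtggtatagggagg

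Windows of this kind were found for 69 members (75 windows, since some genes have several starts), and 9 had none. The ETS type motif, the binding sequence of factors such as GABP, was in 16.0% of member windows, against 8.18% of the windows of other tested genes and 3.89% of all windows. The YY1 type motif was in 16.0%, against 4.40% and 2.75%, and the NRF1 type in 10.7%, against 5.21% and 2.71%. The E-box, bound by MYC among others, was in 9.33% of member windows, against 9.85% and 7.15%. The ATF4 type was in 0 member windows, against 2.12% and 3.97%. Among the 12 members with the ETS type motif 1 was higher and 6 were lower. The 12 with the YY1 type gave the same numbers. Among the 8 with the NRF1 type 2 were higher and 3 lower, and among the 5 with an E-box 0 were higher and 2 lower. Over all members tested 13.0% were higher and 35.1% lower, and over all genes 24.7% and 24.3%. Whether calls differ with a motif was not tested. A match of letters is a description of the window and no measure of binding.

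**Figure D3:**
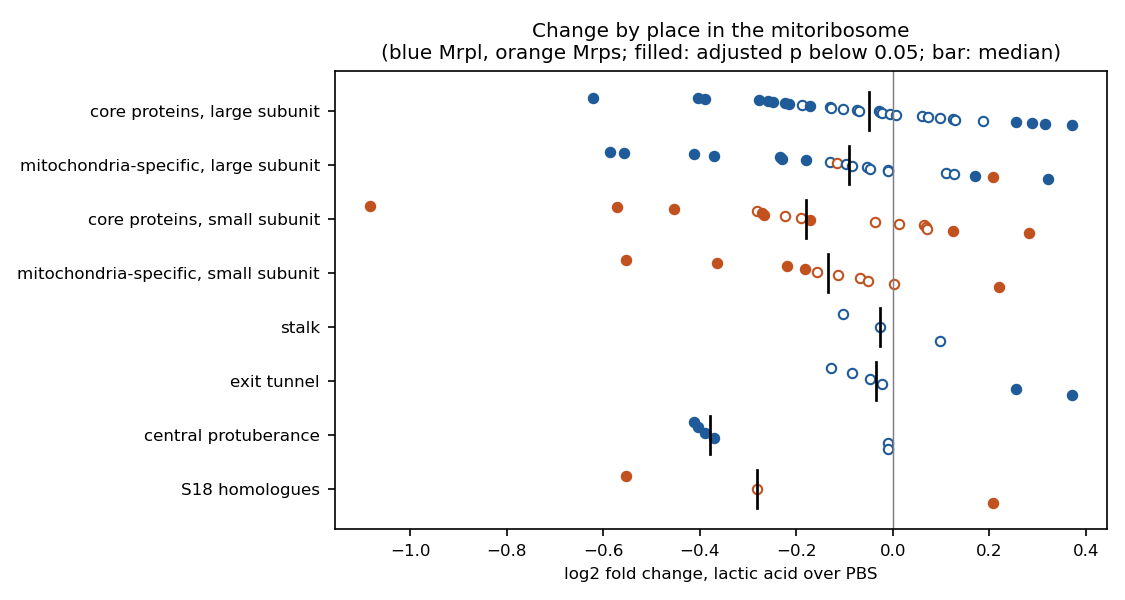
Log2 fold change, lactic acid over PBS, of every tested member except Mrps36 by its role in the mitochondrial ribosome, with filled points past the test and a line at the median of each role. Among the roles drawn, the 6 genes listed for the central protuberance have the lowest median, at -0.38, with 4 of the 6 lower. The role lists may be incomplete.

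Core proteins of the large subunit numbered 30, of which 4 were higher and 10 lower (46.7% called, beside 49.0% over all genes), with a median of -0.049. Mrpl20 (ENSMUSG00000029066, chr4:155802878-155809975, plus strand), a homologue of bacterial L20, stood at 65.4 and 72.4 CPM with PBS and 45.3 and 44.3 CPM with lactic acid. It fell by 0.62 (SE 0.06, adjusted p 1.48e-12), the largest change of an Mrpl gene, with groups far apart. Mrpl17, at 64.6 and 60.9 against 52.2 and 51.4 CPM, fell by 0.28 (adjusted p 0.00015). In the opposite direction Mrpl33, a homologue of bacterial L33, rose by 0.32 from 31.4 and 29.0 to 38.6 and 36.6 CPM (SE 0.08, adjusted p 0.000716). Mrpl14, at the face that joins the small subunit, was called higher by 0.29, from 40.6 and 35.5 to 47.3 and 45.6 CPM (adjusted p 0.000804). Without PBS replicate 2 its adjusted p was 0.0714, the highest of all alternatives, of which the lowest was 6.01e-05. Mrpl14 overlaps Tmem63b, which was itself higher by 0.53.

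Large subunit proteins specific to mitochondria numbered 20 among those tested, of which 3 were higher and 7 lower, with a median of -0.09. Mrps18a, another relative of S18 at a place of its own, is among the higher ones. Called were 10 of the 20, beside 49.0% over all genes, of which 24.7% were higher and 24.3% lower. Mrpl54 stood at 39.9 and 36.1 CPM with PBS and 26.9 and 23.7 CPM with lactic acid and fell by 0.59 (SE 0.08, adjusted p 3.13e-08). Mrpl49 stood at 69.2 and 68.5 against 45.2 and 48.2 CPM and fell by 0.56 (SE 0.06, adjusted p 2.06e-11); it overlaps Syvn1, which was lower by 0.25. In both genes the lactic acid libraries were low by about the same amount. Mrpl57 was called higher at 22.6 and 21.7 against 28.1 and 27.3 CPM (0.32, SE 0.09, adjusted p 0.00249), a call that DESeq2 did not make (0.0582). Mrpl50 was called higher at 45.1 and 42.6 against 49.7 and 49.0 CPM (0.17, adjusted p 0.0324), and lost the call in 4 alternatives, with DESeq2 and without PBS replicate 2 or either lactic acid library (0.0289 to 0.242). Mrpl58, a peptidyl-tRNA hydrolase that frees stalled ribosomes, stood at 33.0 and 29.2 against 28.0 and 28.8 CPM and did not pass (-0.13, adjusted p 0.21).

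The central protuberance is the crest of the large subunit facing the head of the small one. Of the 6 members listed for it, 4 fell and 0 rose in edgeR, beside 24.3% lower over all genes. The numbers were also 4 and 0 at an unadjusted p under 0.05, with DESeq2 and with limma-voom. This list may not hold every member at that place, and members left off it were not counted. Mrpl18 stood at 56.5 and 59.6 CPM with PBS and 44.5 and 43.3 CPM with lactic acid and fell by 0.40 (SE 0.07, adjusted p 4.79e-07). Mrpl46 fell by 0.41 from 20.0 and 18.03 to 13.7 and 14.9 CPM (adjusted p 0.00213), and Mrpl27 by 0.39 from 26.9 and 27.6 to 20.7 and 20.97 CPM (adjusted p 0.000358). Mrpl40 fell by 0.37 from 34.7 and 38.3 to 27.7 and 28.8 CPM (adjusted p 0.000122). In these 4 genes both lactic acid libraries were low, and the fold was nearly the same. Mrpl38 and Mrpl48, at 84.8 and 76.3 against 76.4 and 83.3 CPM and at 19.6 and 22.4 against 21.5 and 20.2 CPM, had overlapping groups and did not pass. Of the 4, Mrpl18 overlaps Tcp1 (-0.15), Mrpl27 overlaps Eme1 (-0.04) and Mrpl46 overlaps Mrps11, while Mrpl40 has no such overlap.

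Of the 6 members listed for the tunnel through which the new protein leaves, 2 were higher and 0 lower in edgeR. Over all genes 24.7% were higher and 24.3% lower. At an unadjusted p under 0.05 the numbers were also 2 and 0, with DESeq2 1 and 0, and with limma-voom 2 and 0. Other members at the tunnel may be missing from this list, so the 0 lower holds for these 6 only. The median of the 6 was -0.035, and 4 of the 6 folds lay below 1. Mrpl23, a homologue of the bacterial exit protein L23, had the largest rise of any member, from 30.2 and 26.5 CPM with PBS to 39.1 and 34.2 CPM with lactic acid (0.37, SE 0.08, adjusted p 0.000179). Mrpl22 was called higher at 19.9 and 22.5 against 23.6 and 27.1 CPM (0.26, SE 0.10, adjusted p 0.0248). Its groups are separated by little, and the call was lost with DESeq2 and without PBS replicate 1 or lactic acid replicate 2 (0.00901 to 0.346). Mrpl45, which tethers the ribosome to the inner membrane, stood at 81.1 and 76.4 against 70.6 and 77.9 CPM and did not pass (adjusted p 0.212), nor did Mrpl44 at 29.2 and 28.3 against 28.5 and 27.1 CPM (adjusted p 0.678), Mrpl24 (-0.02, adjusted p 0.844) or Mrpl47 (-0.13, adjusted p 0.336). Mrpl44 overlaps Wdfy1, which was higher by 0.63.

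The stalk that recruits elongation factors, made of Mrpl10, Mrpl11 and Mrpl12, had 0 genes past the test in edgeR, beside 49.0% over all genes. The number was also 0 at an unadjusted p under 0.05, with DESeq2 and with limma-voom. Mrpl10 stood at 75.2 and 75.6 CPM with PBS and 71.3 and 76.7 CPM with lactic acid (log2 difference -0.03, SE 0.05). Mrpl11 stood at 47.1 and 45.5 against 42.7 and 43.6 CPM (-0.10), and Mrpl12, which also binds the mitochondrial RNA polymerase, at 55.1 and 51.5 against 59.3 and 54.7 CPM (0.10). The groups overlapped for Mrpl10 and Mrpl12 and did not for Mrpl11. Mrps36, the dehydrogenase subunit, did not pass either, at 19.7 and 18.1 against 19.7 and 17.1 CPM (adjusted p 0.798).

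Per length, the tested members spanned a range of FPKM, averaged over all libraries, from 2.55 for Mrpl48 to 70.1 for Mrpl34. The median was 18.6 FPKM for Mrpl and 13.4 FPKM for Mrps, where the range ran from 4.34 for Mrps25 to 55.6 for Mrps21. The most abundant Mrpl genes per length were Mrpl34, at 67.2 ± 0.219 FPKM with PBS and 72.9 ± 2.64 with lactic acid, Mrpl2, at 58.9 ± 3.51 and 60.9 ± 2.89, and Mrpl28, at 53.9 ± 0.311 and 58.4 ± 5.84. None of these 3 passed the test, and Mrpl28 did so without lactic acid replicate 2 (adjusted p 0.0056). The most abundant Mrps genes per length were Mrps21, at 61.0 ± 0.902 and 50.1 ± 1.70 FPKM, Mrps15, at 38.0 ± 2.17 and 31.3 ± 0.229, and Mrps23, at 30.5 ± 2.66 and 27.9 ± 1.35. Mrps21 and Mrps15 were called lower (values above) and Mrps23 did not pass. Besides Mrps25, the members that moved least were Mrpl1, Mrpl15 and Mrps24, with log2 differences of -0.0063, 0.0075 and 0.014. Mrpl53 was not tested, since it held 0 counts in all 4 libraries, and 88.0% of its exon bases are shared with Gm42688 on the same strand, which held 91.

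The members lie on 17 chromosomes, with 11 on chromosome 11, 8 on chromosome 17 and 7 on chromosome 6. For 27 members the nearest protein-coding gene on the opposite strand starts within 1000 bases, pointing away, or overlaps at its start by at most 500 bases. Of the 12 such members that were lower, 6 had a neighbour that was lower, 5 a neighbour that did not pass and 1 a neighbour that was higher, beside 24.3% lower and 24.7% higher over all genes. Mrps11 and Mrpl46, which share exon bases, are each other's neighbour, so these are 11 distinct pairs, of which 5 had both genes lower. Mrps18b and Ppp1r10, whose starts are 45 bases apart, were lower by 0.55 and 0.46, and Mrpl40 and Hira, 175 bases apart, by 0.37 and 0.29. Mrpl49 and Fau, which encodes a cytosolic ribosomal protein, 137 bases apart, moved in opposite directions, by -0.56 and 0.16 (adjusted p for Fau 7.48e-07). These neighbours were chosen for naming after their values were seen.

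**Figure D4:**
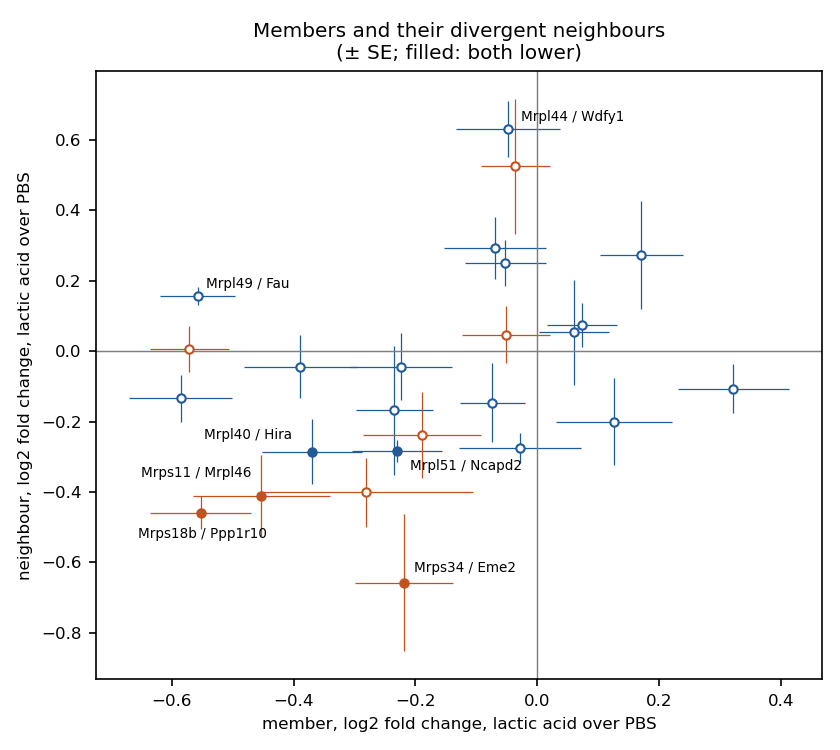
Log2 fold change, lactic acid over PBS, with standard errors, of each member (horizontal axis, Mrpl blue and Mrps orange) and of its divergent neighbour (vertical axis). Filled points, where both were lower, include Mrps18b with Ppp1r10 (-0.55 and -0.46), while Mrpl49 with Fau lies at the upper left (-0.56 and 0.16). The pair Mrps11 and Mrpl46 is drawn once.

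Mrps11 and Mrpl46 are such a pair within the family, a small and a large subunit gene arranged head to head on chromosome 7. By the gene bounds given with the counts, Mrps11 lies at chr7:78783119-78792989 on the plus strand and Mrpl46 at chr7:78775236-78783531 on the minus strand. By these outermost bounds their starts overlap by 412 bases, of which 173 are exon bases of both. The RefSeq starts behind the windows below lie elsewhere, so the overlap depends on the annotation. They fell together, by 0.45 and 0.41, and both calls held in all 11 alternatives. Reads from the shared bases cannot be assigned to either gene without strand. Their promoter windows are shown because they overlap, at chr7:78782881-78783180 for Mrps11 and chr7:78783040-78783339 for Mrpl46. Capitals mark the YY1 type motif, on the opposite strand, in the Mrps11 window, and the Mrpl46 window held none of the 5 motifs.
Mrps11: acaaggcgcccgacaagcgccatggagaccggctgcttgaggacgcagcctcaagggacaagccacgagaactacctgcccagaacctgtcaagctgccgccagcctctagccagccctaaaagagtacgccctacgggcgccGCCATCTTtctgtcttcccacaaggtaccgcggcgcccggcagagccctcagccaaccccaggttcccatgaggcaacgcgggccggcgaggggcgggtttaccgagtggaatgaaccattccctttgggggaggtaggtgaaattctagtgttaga
Mrpl46: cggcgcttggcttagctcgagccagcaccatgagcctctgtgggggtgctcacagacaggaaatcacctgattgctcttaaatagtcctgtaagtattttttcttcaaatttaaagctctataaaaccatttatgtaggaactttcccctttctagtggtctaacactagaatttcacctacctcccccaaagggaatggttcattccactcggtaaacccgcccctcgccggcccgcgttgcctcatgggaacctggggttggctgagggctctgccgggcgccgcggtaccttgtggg

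Overlap and copies touch many members. In all, 20 members share exon bases with a gene that holds at least 10% as many reads, 13 match another annotated gene near-identically over part of their transcript, and 25 have either. For 8 of the 13 a match lies elsewhere in the genome, and for the others it is an annotation that overlaps the member itself. Among the 53 with neither, 9 were higher (16.98%) and 15 lower (28.3%), with a median of -0.074, against 35.1% lower of all members tested and 24.3% lower of all genes. Within these the Mrpl genes numbered 34, with 5 higher (14.7%) and 10 lower (29.4%), and the Mrps genes 19, with 4 higher (21.1%) and 5 lower (26.3%).

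Calls among the partners of the mitochondrial ribosome went in both directions, as they did over all genes, of which 24.7% were higher and 24.3% lower. Of 5 mitoribosomal proteins with other symbols, 1 was higher and 2 lower (60.0% called, beside 49.0% over all genes), with a median log2 difference of -0.11. The small subunit proteins Ptcd3 and Dap3 fell by 0.30 and 0.26 (adjusted p 3.11e-09 and 2.84e-05), from 156 ± 1.98 to 127 ± 2.23 CPM and from 87.1 ± 2.49 to 72.7 ± 2.76 CPM. Chchd1, also of the small subunit, was called higher at 28.9 ± 2.25 against 35.7 ± 1.97 CPM (0.31, adjusted p 0.00146), but not without lactic acid replicate 2 (0.053). Of 30 assembly and ribosomal RNA modification genes, 6 were higher and 5 lower, with a median of -0.02. The share called was 36.7%, below the 49.0% over all genes. Mtg1, a GTPase of large subunit assembly, rose from 10.2 ± 0.175 to 17.6 ± 0.207 CPM (0.78, adjusted p 4.16e-07). The RNA methyltransferase gene Trmt2b rose by 0.56 (adjusted p 4.93e-07), and Malsu1, which binds Mrpl14 and keeps the subunits apart during assembly, by 0.53 (adjusted p 1.9e-05). The lower genes of this list were Lonp1 (-0.14), Mrm2 (-0.58), Rpusd4 (-0.32), Ybey (-0.74) and Ddx28 (-0.25), named after their values were seen, and the last 3 lost the call in at least 1 alternative.

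Of 14 translation factors tested, 1 was higher and 2 lower, with a median of -0.04. Called were 21.4% of these and 36.4% of the transcription and DNA upkeep genes below, beside 49.0% over all genes. Lrpprc, which stabilises mitochondrial messenger RNA, fell from 181 ± 0.780 to 139 ± 1.61 CPM (-0.39, adjusted p 7.73e-13), and the elongation factor Gfm1 from 112 ± 8.31 to 95.9 ± 2.71 CPM (-0.23, adjusted p 4.74e-05). Guf1, a GTPase related to elongation factors, rose from 32.7 ± 0.325 to 45.4 ± 0.311 CPM (0.47, adjusted p 2.52e-07). Of 11 genes of mitochondrial transcription and DNA upkeep, with a median of 0.12, the helicase Twnk (0.25) and the elongation factor Tefm (0.36) were higher and the polymerase Polrmt (-0.22) and its cofactor Tfb2m (-0.23) lower, and only the call of Twnk among these 4 held in all alternatives.

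Of 12 tested protein genes of the mitochondrial genome, 3 were higher and 4 lower (58.3% called, beside 49.0% over all genes), with a median of -0.14. With limma-voom, without robust settings and without PBS replicate 1 or lactic acid replicate 2 the number lower was 7, and with DESeq2 the number higher was 1; the calls of mt-Co2, mt-Nd5 and mt-Nd6, which did not pass here, changed in 5, 6 and 7 of 11 alternatives. mt-Cytb fell from 4364 ± 66.5 to 3051 ± 20.1 CPM (-0.52, adjusted p 8.74e-35), mt-Nd2 from 1803 ± 14.7 to 1504 ± 29.7 CPM (-0.26, adjusted p 6.82e-17), while mt-Co1 rose from 9493 ± 25.2 to 12078 ± 22.0 CPM (0.35, adjusted p 1.11e-32). Levels in this list were very uneven, with mt-Co2, mt-Atp6 and mt-Co3 at only 36.6, 15.7 and 11.5 CPM with PBS. Near-identical copies were sought for members only. Whether reads with several matches shaped the low values of this list was not tested. Named after their values were seen, mt-Nd1 (-0.53) and mt-Nd4 (-0.16) were the other lower genes and mt-Nd3 and mt-Nd4l the other higher ones, at 1.55 ± 0.0409 against 3.11 ± 0.809 CPM and 2.12 ± 0.142 against 3.91 ± 2.02 CPM, and both of the latter lost the call with DESeq2 and without 1 lactic acid library. Of the mitochondrial ribosomal RNAs, which were read from a library selected for poly(A), mt-Rnr2 of the large subunit stood at 557 ± 26.0 against 398 ± 37.5 CPM (-0.48, adjusted p 0.0514) and mt-Rnr1 of the small subunit at 151 and 135 against 131 and 140 CPM (-0.07, adjusted p 0.191). Neither passed, but mt-Rnr2 did in 9 of 11 alternatives, among them DESeq2 and limma-voom.

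Of 9 tested regulators of nuclear genes for mitochondria, 2 were higher and 4 lower (66.7% called, beside 49.0% over all genes), with a median of -0.013. Myc, a transcription factor that drives growth and ribosome production, rose from 332 ± 1.76 to 583 ± 6.63 CPM (0.81, adjusted p 5.03e-32), and Esrra, a nuclear receptor named after its value was seen, rose by 0.72. Nrf1, which binds the NRF1 type motif above, fell from 62.8 ± 5.08 to 48.7 ± 3.52 CPM (-0.36, adjusted p 4.31e-06). Gabpa and Gabpb2, subunits of the ETS factor GABP, fell by 0.22 and 0.56 (adjusted p 0.000261 and 1.73e-17), while the alternative subunit Gabpb1 stood at 47.8 ± 1.35 and 48.1 ± 0.522 CPM (0.0074, adjusted p 0.94). Yy1, which binds the YY1 type motif, stood at 202 ± 0.494 and 208 ± 1.17 CPM (0.04, adjusted p 0.334) and did not pass either; both were named after their values were seen. The coactivator Pprc1 fell by 0.43 (adjusted p 4.8e-14). Ppargc1a held 21 counts in all and was not tested. For scale, the cytosolic ribosomal protein genes had 49 of 83 tested higher (59.0%) and 8 lower (9.64%), with a median of 0.13. The mitochondrial ones had 10 higher and 27 lower of 77, and over all genes 24.7% were higher and 24.3% lower. The difference between these lists was not tested.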

How the data were processed

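RNA of 4 LL2 libraries was analysed, 2 with lactic acid and 2 with PBS, grouped by the labels. Per the labels' protocols, the kit took poly(A) RNA and does not mark strand, and reads came in pairs of 150 bases. The deposited counts are whole reads per gene, unscaled. The second table holds FPKM values that the authors deposited; a constant per library, 0.982 to 1.025 times its total count, turns counts per kilobase into them for every gene above 0 (relative tolerance 1e-06). Tools named per the submitters' processing notes, with no step assigned, are featureCounts 1.5.0-p3, the aligner HISAT2 2.0.5, DESeq2 1.16.1, CASAVA and also StringTie 1.3.3b, and the builds are mm10 and GRCm38.p6. How strand, overlapping genes and reads with several matches were counted is not given in the sources used here.

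Genes with low counts were removed with filterByExpr (minimum count 10), and all 13922 remaining genes were fitted with edgeR 4.0.16 in R 4.3.3 (robust quasi-likelihood, TMM scaling, two-sided, Benjamini-Hochberg over all genes, threshold 0.05). The code was tested on simulated data. CPM used the TMM library sizes, 3 counts corresponding to 0.172 to 0.194 CPM; this limit covers counting error only. Counts of 99 to 1458 lay behind a member's value in a library, giving standard errors of 0.05 to 0.18 on the log2 scale. Alternatives used DESeq2 1.42.0, limma-voom (limma 3.58.1), RLE scaling, other filters, no robust setting, a replicate block and each library left out; leaving out a library leaves 1 in its group, which is assumed to vary like the other. Copies of members were sought with blastn 2.17.0 (at least 98% identity over 300 bases), and promoter windows are RefSeq's on GRCm38.p6.

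Members, lists and roles were chosen with earlier results of these data known. The role lists come from general knowledge of the mitochondrial ribosome and may be incomplete. Named were the called members with separate groups (at most 8 each way per class by size of change), the 3 most abundant per length and the 2 least changed per class, the stalk, the S18 homologues, Mrps36, Mrpl44, Mrpl45, Mrpl58, Mrps12 and any untested member, and in partner lists the 3 smallest p, both ribosomal RNAs, Myc, Nrf1, Gabpa and Ppargc1a. The result of 1 marker list is not reported here.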

Additional observations from a re-analysis of the deposited data

How the results depend on the processing

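No called member turned to the other direction in any of 11 alternatives, and 19 of 37 calls (16 lower, 3 higher) held in all of them; DESeq2 kept 23, limma-voom 35, RLE scaling 36, no filter 34 and single libraries left out 25 to 31. DESeq2 called 2251 genes higher instead of 3445 (lower 2494 instead of 3377), with 3 Mrpl higher instead of 6 and 1 Mrps higher instead of 4; without a filter 2 Mrps were higher. Leaving out members with an overlap or copy left 10 Mrpl and 5 Mrps lower and a Mrpl median of -0.0403. The number of genes fell, and so did the share lower, from 35.4% to 29.4% for Mrpl and from 34.5% to 26.3% for Mrps. The share higher rose from 12.5% to 14.7% for Mrpl and from 13.8% to 21.1% for Mrps. The cause of these shifts was not tested. Grouping by place gave a Mrps median of -0.16. The log2 change of the Mrps to Mrpl ratio was -0.14 on FPKM, and without Mrps6 (added after seeing the data) -0.0091 on CPM and -0.085 on FPKM.

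With 1 library left out, 5 to 6 Mrpl were higher and 11 (without lactic acid replicate 1) to 15 lower, 1 (without PBS replicate 1) to 3 Mrps were higher and 7 to 12 lower, the medians were -0.10 to -0.048 for Mrpl and -0.16 to -0.071 for Mrps, the log2 ratio was -0.052 to -0.037, and 2853 to 3022 genes were higher and 2953 to 3142 lower. The sign of the fold turned in at least 1 alternative for 17 members, all of them not past the test, Mrpl24, Mrpl38 and Mrpl48 included; with a library left out it turned for, among others, Mrpl1 (-0.097 to 0.076), Mrpl2 (-0.0079 to 0.12), Mrpl10 (-0.081 to 0.023), Mrpl15 (-0.018 to 0.031), Mrps24 (-0.047 to 0.068), Mrps25 (-0.064 to 0.062) and Mrps36 (-0.145 to 0.0599). Mrps25 was also -0.0051 with RLE, -0.0022 with no filter and -0.0046 with DESeq2. RLE scaling moved the median of all genes from 0.0073 to 0.0002. Except where stated the cause was not tested.

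The deviations of libraries with equal replicate numbers did not move together (correlation 0.0038). Since counting noise adds to these deviations, this cannot tell whether the libraries were handled as pairs. With the replicate block 3459 genes were higher and 3393 lower, and 38 members were called, among them all 37 of the fit without it. Depth limits Mrps18c most, at 99 counts in its lowest library.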
